A study of Homo sapiens with 6 samples.

Results

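Extracellular vesicles (EVs) released by Cal27 spheroids were examined for 6 miRNAs known from liver, gut, red cells or myeloid cells, namely hsa-miR-122-5p, hsa-miR-192-5p, hsa-miR-194-5p, hsa-miR-486-5p, hsa-miR-451a and hsa-miR-223-3p. They were picked by name from what is known of their tissues, as miRNAs that a carcinoma of the mouth would not be thought to make in quantity, and all 6 were among the 471 rows of the miRNA count table. The study, however, cites miR-122-5p as found uniquely in small EVs of head and neck carcinoma cell lines. It reports miR-122-5p as higher in EV_stiff by sequencing and by qRT-PCR. Cal27 is an established human cell line of oral squamous cell carcinoma. Spheroids were grown for 14 days from cells plated on gels of growth factor reduced Matrigel at 3 mg/mL (soft ECM, EV_soft) or 12 mg/mL (stiff ECM, EV_stiff), with 3 libraries in each group, and EVs were isolated from the day 14 medium by insulator-based dielectrophoresis. All 6 libraries came from the same cell line with no other treatment, and the study describes the replicates as separate isolations from separate culture experiments. By the study's methods the medium of both groups contained fetal bovine serum that had been depleted of EVs by ultracentrifugation. The amount of Matrigel polymer differed between the groups together with stiffness. No library of medium without cells was analysed here.

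MiRNAs are short RNAs that are cut from hairpin precursors and guide the silencing of mRNAs that pair with their seed, the bases from position 2 to position 8. miR-122-5p is the dominant miRNA of hepatocytes, where it is known for its part in lipid metabolism. miR-192-5p and miR-194-5p are known from gut epithelium, liver and kidney. miR-486-5p and miR-451a are abundant in red cells and their precursors, and miR-451a is unusual in that its hairpin is cut by Argonaute 2 and not by Dicer. miR-223-3p is a marker of neutrophils and other myeloid cells and is plentiful in platelets. In blood plasma, miRNAs of these tissues are carried by vesicles, lipoproteins and protein complexes.

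No sequence is shown for miR-486-5p and miR-451a, which does not mean that RefSeq lacks them. Mature sequences of 4 of the 6 members were taken from RefSeq (GRCh38.p14) and are shown because a read can only be assigned by these letters, with the seed in capitals.
miR-122-5p: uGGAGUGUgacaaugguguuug
miR-192-5p: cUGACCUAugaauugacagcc
miR-194-5p: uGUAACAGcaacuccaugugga
miR-223-3p: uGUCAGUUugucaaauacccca

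These 4 members have 4 different seeds. Among the mature human miRNAs searched, the seed of miR-192-5p was shared by miR-215-5p, and none shared the seed of miR-122-5p, miR-194-5p or miR-223-3p. The search did not cover every chromosome, so a further miRNA with any of these seeds could have been missed. The sequence of miR-215-5p, another miRNA of gut epithelium, is shown for the comparison with miR-192-5p, again with the seed in capitals.
miR-215-5p: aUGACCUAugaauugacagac

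The mature sequences of miR-192-5p and miR-215-5p differ at 2 of 21 positions. miR-215-5p has no row in the count table, so whether a few of its reads were counted as miR-192-5p was not tested.

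The hairpin of miR-122 lies at chr18:58451074-58451158 on the plus strand of GRCh38, in an exon of the lncRNA MIR122HG. The hairpins MIR192 (chr11:64891137-64891246) and MIR194-2 (chr11:64891355-64891439) lie 108 bases apart on the minus strand, both in an exon of the lncRNA MIR194-2HG. A further hairpin, MIR194-1 (chr1:220118157-220118241, minus strand), lies within an intron of the protein-coding gene IARS2 on the opposite strand. The hairpin of miR-223 lies at chrX:66018870-66018979 on the plus strand in an exon of MIR223HG, and that of miR-451a at chr17:28861369-28861440 on the minus strand in an exon of an lncRNA with no symbol. Both miR-194 hairpins are shown with the mature miRNA in capitals, since they give the same mature sequence and its reads cannot be split between chromosomes 1 and 11.
MIR194-1: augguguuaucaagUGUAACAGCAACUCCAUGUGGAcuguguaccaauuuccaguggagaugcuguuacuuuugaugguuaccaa
MIR194-2: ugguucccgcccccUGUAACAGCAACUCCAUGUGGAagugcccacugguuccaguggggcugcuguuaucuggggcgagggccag

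Values are given as raw reads and as CPM, read counts divided by library size (times a constant) after scaling by edgeR's TMM method, which sets the libraries to a common level on the assumption that most miRNAs did not change. Between 28688 and 66345 miRNA reads were counted per library, and every EV_soft library had more than every EV_stiff library (p = 0.1 in a two-sided exact permutation test, the lowest p that 3 samples against 3 allow). The number of counted miRNA reads and the group therefore cannot be told apart in raw reads. By the study's methods the volumes of the libraries were adjusted to sequence equal numbers of reads. At the depth that the study aimed for, the counted miRNA reads are only a small part of these, and the reason was not tested. A count of 3, an approximate upper limit at 95% confidence for a count of 0, was worth between 44.8 and 108 CPM. This limit, like the intervals of shares, covers counting error only, as PCR copies of a molecule are counted anew. Every pair of libraries differed beyond sampling noise (chi-square per degree of freedom at least 3.40). Of the labelled cell type, miR-205-5p, a miRNA of squamous epithelium, had between 923 and 2078 reads in every library. The 7 listed squamous miRNAs present in the table made up 14.9% to 17.0% of reads in EV_soft and 11.4% to 11.8% in EV_stiff. The largest part of these reads, 21551 over all libraries, was of miR-21-5p. The list did not move as a whole. Mean CPM were lower in EV_stiff for miR-21-5p, miR-200c-3p, miR-141-3p and miR-31-5p, and higher for miR-205-5p and miR-203a-3p. miR-31-3p had 2 reads in all. The summed share therefore does not stand for each of these miRNAs. In these bulk libraries, a larger number of EVs that carry a miRNA and more copies per EV cannot be told apart.

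miR-122-5p made up most of what was detected of the 6 members. It had 1085 of their 1572 reads (69.0%) and ranked 33 of 471 by mean reads. miR-192-5p followed with 265 reads, miR-486-5p with 168, miR-194-5p with 29, miR-451a with 24 and miR-223-3p with 1. Together the members had between 222 and 309 reads per library, from 0.407% to 1.04% of all miRNA reads. edgeR's filter on low counts kept 105 miRNAs, and miR-122-5p, miR-192-5p and miR-486-5p were among them. The other 3 members were too low to be tested across miRNAs, and their reads are given as they are.

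**Figure D1:**
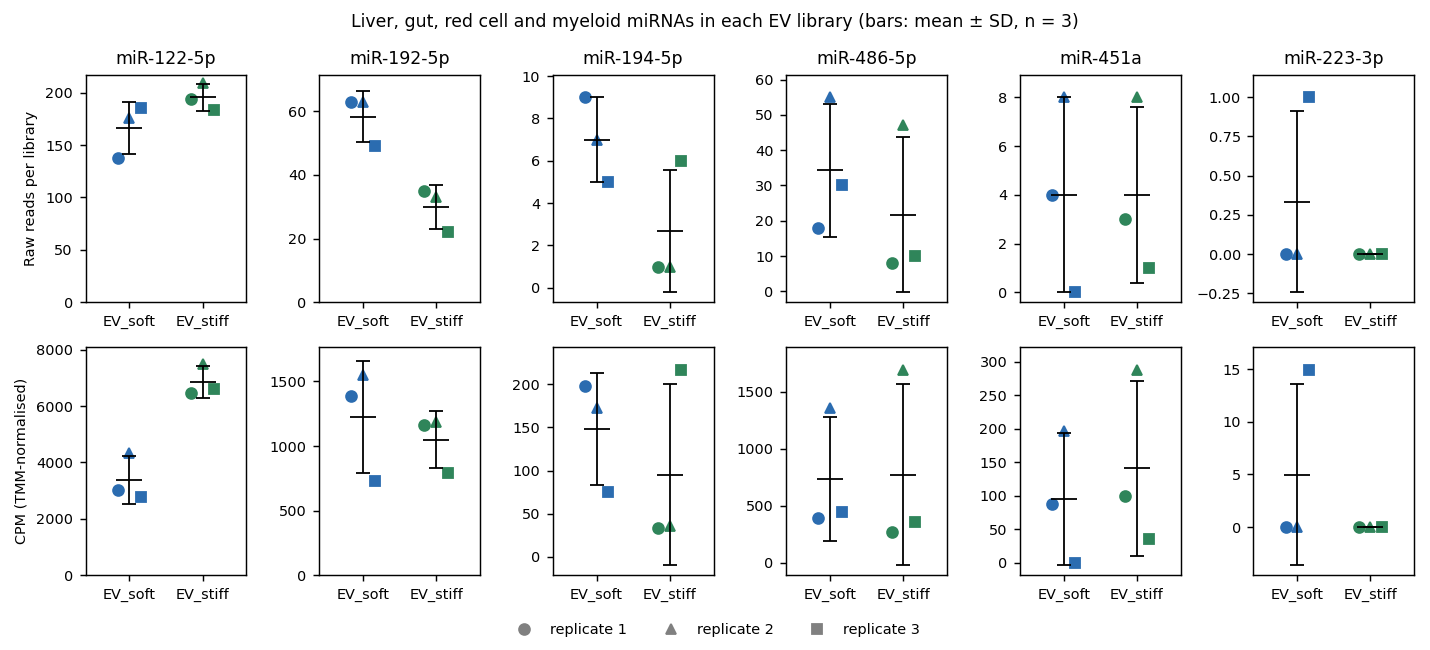
Raw reads (upper row) and TMM-normalised CPM (lower row) of the 6 members in each library, with EV_soft in blue, EV_stiff in green and a symbol for each replicate number; bars give the mean ± SD (n = 3), and each panel has its own scale. The CPM of miR-122-5p do not overlap between groups while its reads do, the reads of miR-192-5p do not overlap while its CPM do, and miR-486-5p and miR-451a are highest in replicate 2 of both groups.

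Of the 3 members tested, miR-122-5p alone was called different between EV_soft and EV_stiff, where a call asked for both a log2 fold change beyond -0.58 or 0.58 and an adjusted p no higher than 0.05. In the same comparison 18.1% of the 105 miRNAs tested were called, 10.5% as higher in EV_stiff and 7.62% as lower. The median log2 fold change was 0.10 over the 3 members and -0.04 over the 105 miRNAs.

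The liver miRNA miR-122-5p had 3032, 4339 and 2762 CPM in the EV_soft libraries and 6462, 7512 and 6597 CPM in the EV_stiff libraries, in the order of the replicate numbers. The lowest EV_stiff library was well above the highest EV_soft library, replicate 2. The mean was 3378 ± 843 CPM (SD, n = 3) in EV_soft and 6857 ± 571 CPM (SD, n = 3) in EV_stiff, a log2 fold change of 1.03 (95% interval 0.62 to 1.44, adjusted p = 0.00295, edgeR's quasi-likelihood test). Groups that did not overlap in CPM were found for this member alone of the 3, and for 47.6% of the miRNAs tested. As a share of reads, miR-122-5p was 0.449% in EV_soft replicate 2 (95% exact binomial interval 0.385 to 0.520%) and 0.616% in EV_stiff replicate 3 (0.530 to 0.712%), the closest libraries of the groups, and these intervals did not overlap. Within EV_soft the interval of replicate 2 did not overlap those of replicate 1 (0.253 to 0.355%) and replicate 3 (0.240 to 0.322%) either. Such intervals do not measure the spread between replicates, so their lack of overlap is no test of the groups.

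In raw reads miR-122-5p numbered 138, 176 and 185 in EV_soft and 194, 209 and 183 in EV_stiff. The groups overlapped, with EV_stiff replicate 3 below EV_soft replicate 3 (means 166 ± 24.9 and 195 ± 13.1, SD, n = 3, p = 0.2 by an exact two-sided permutation). The reads spanned 1.51-fold over the 6 libraries while the library totals spanned 2.31-fold. The coefficient of variation (CV, the SD over the mean of all 6 libraries) of its reads was 13.2%, the second lowest of the 105 miRNAs tested, whose median was 46.2%. After scaling its CV was 39.3%, against a median of 26.8%. A CV that was smaller in reads than in CPM was found for 16 of the 105 miRNAs, and the lowest CV of reads belonged to let-7c-5p (12.9%). For 9 of the 105 miRNAs, miR-122-5p among them, the mean number of reads was higher in EV_stiff than in EV_soft. As the EV_soft libraries held more reads, raw reads come out more even for a miRNA whose CPM is higher in EV_stiff. The low CV of the reads of miR-122-5p is therefore tied to its fold change and is no separate result.

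**Figure D2:**
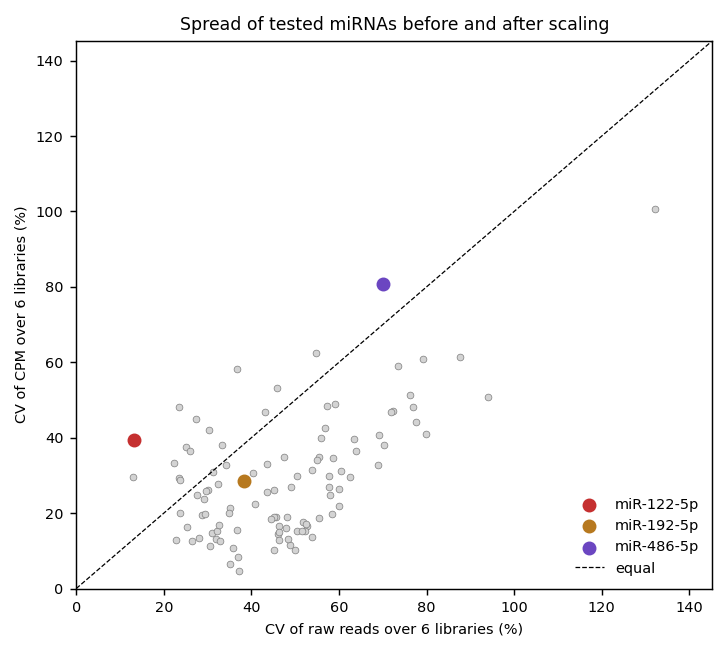
Each point is one of the 105 tested miRNAs, with the CV of its raw reads over the 6 libraries (%) on the horizontal axis and the CV of its CPM (%) on the vertical axis; the dashed line marks equal values. miR-122-5p (red) lies at 13.2% and 39.3%, far to the left of most miRNAs, miR-192-5p (ochre) lies under the line, and miR-486-5p (purple) is variable on both scales.

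The size of the difference thus depended on whether libraries were scaled. With every library given the same size, which compares raw reads, the log2 fold change of miR-122-5p was 0.23 (SE 0.30, edgeR's quasi-likelihood adjusted p = 0.485) and the median of the 105 miRNAs was -0.89. A change of library size moves all miRNAs by about the same amount, so the distance of miR-122-5p from the median is no separate result on this scale. Under the other 14 alternatives fixed with the design, among them DESeq2, other scaling factors and each library left out, it stayed called, with a log2 fold change between 0.90 and 1.24.

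**Figure D3:**
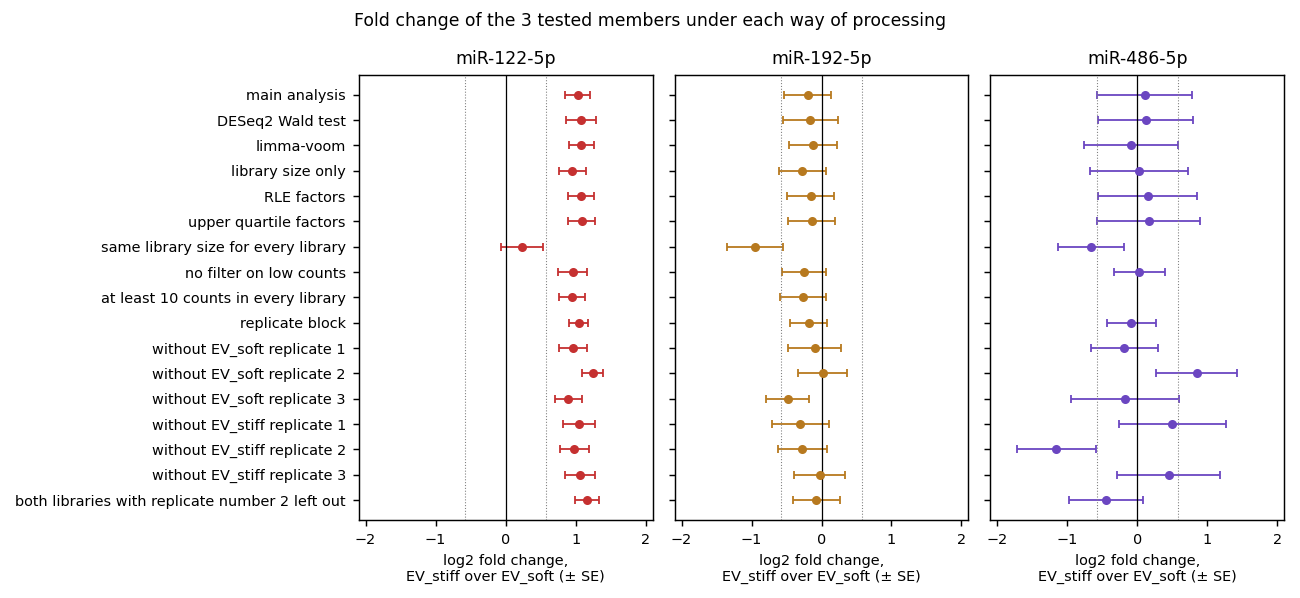
Log2 fold change of EV_stiff over EV_soft (± SE) for the 3 tested members, one panel each, under the main analysis and every alternative named on the vertical axis; dotted lines mark -0.58 and 0.58. miR-122-5p stays right of 0.58 except where all libraries are given one size, miR-192-5p passes -0.58 only there, and miR-486-5p changes side depending on which libraries are left out.

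The gut and liver miRNA miR-192-5p had 1384, 1553 and 731 CPM in EV_soft and 1166, 1186 and 793 CPM in EV_stiff. The groups overlapped fully, and replicate 3 was the lowest library of both. The means were 1223 ± 434 CPM and 1048 ± 221 CPM (SD, n = 3), a log2 fold change of -0.20 (95% interval -0.93 to 0.53, adjusted p = 0.681, edgeR's quasi-likelihood test). Fold changes below -0.58 lay within this interval. In raw reads it numbered 63, 63 and 49 in EV_soft and 35, 33 and 22 in EV_stiff, and the groups did not overlap (two-sided exact permutation p = 0.1, again the lowest that can be reached). This was lower in EV_stiff, as were the non-overlapping reads of 64.8% of the miRNAs tested. With libraries set to one size it was called lower (log2 fold change -0.96, adjusted p = 0.0356), close to the median of -0.89 of all miRNAs on that scale.

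miR-194-5p, which shares a host transcript with miR-192-5p, had 9, 7 and 5 reads in EV_soft and 1, 1 and 6 reads in EV_stiff. EV_stiff replicate 3 had more reads than EV_soft replicate 3, so the groups overlapped, and the 21 reads of EV_soft and 8 of EV_stiff were too few for the test across miRNAs (148 ± 65.0 and 95.2 ± 105 CPM, SD, n = 3). The EV_stiff library with the most reads of miR-194-5p, replicate 3, was the one with the fewest of miR-192-5p. The other arms, miR-192-3p and miR-194-3p, have no row in the table.

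The pair of miRNAs of red cells varied between libraries more than between groups. miR-486-5p had 18, 55 and 30 reads in EV_soft and 8, 47 and 10 reads in EV_stiff. Replicate 2 was highest in both groups, with 1356 CPM in EV_soft and 1689 CPM in EV_stiff, while the other 4 libraries had between 266 and 448 CPM. The means were 733 ± 540 CPM in EV_soft and 772 ± 796 CPM in EV_stiff (SD, n = 3), a log2 fold change of 0.10 (95% interval -1.41 to 1.62, adjusted p = 0.946, edgeR's quasi-likelihood test). Its sign turned with single libraries, from -1.16 without EV_stiff replicate 2 to 0.85 without EV_soft replicate 2, and it was -0.45 (SE 0.53) without both libraries numbered 2, an alternative added after seeing the data.

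miR-451a had 4, 8 and 0 reads in EV_soft and 3, 8 and 1 reads in EV_stiff, 12 in each group. Replicate 2 was again highest in both groups, with 197 CPM in EV_soft and 288 CPM in EV_stiff, and replicate 3 was lowest in both. For the 0 reads of EV_soft replicate 3, the approximate limit of 3 reads is worth 44.8 CPM. The exact 95% binomial interval of its share reaches 0.00556% of reads. The libraries numbered 2 held 60.7% of the reads of miR-486-5p and 66.7% of those of miR-451a, but 28.2% of all miRNA reads. For miR-192-5p and miR-122-5p these shares were 36.2% and 35.5%.

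Set against the mean of the other libraries of the group, replicate 2 was 3.22-fold higher for miR-486-5p in EV_soft and 5.39-fold higher in EV_stiff. For miR-122-5p these values were 1.50 and 1.15. On the log2 CPM scale with a prior count of 2, averaged over both groups, the excess of the libraries numbered 2 was 1.92 for miR-486-5p, which ranked 1 of the 105 miRNAs tested, ahead of let-7d-3p with 0.85 and miR-10a-5p with 0.68. miR-192-5p ranked 9 with 0.44 and miR-122-5p ranked 15 with 0.39. These ranks are a description that was chosen after the values were seen, and the labels do not say that libraries with the same number share a batch.

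**Figure D4:**
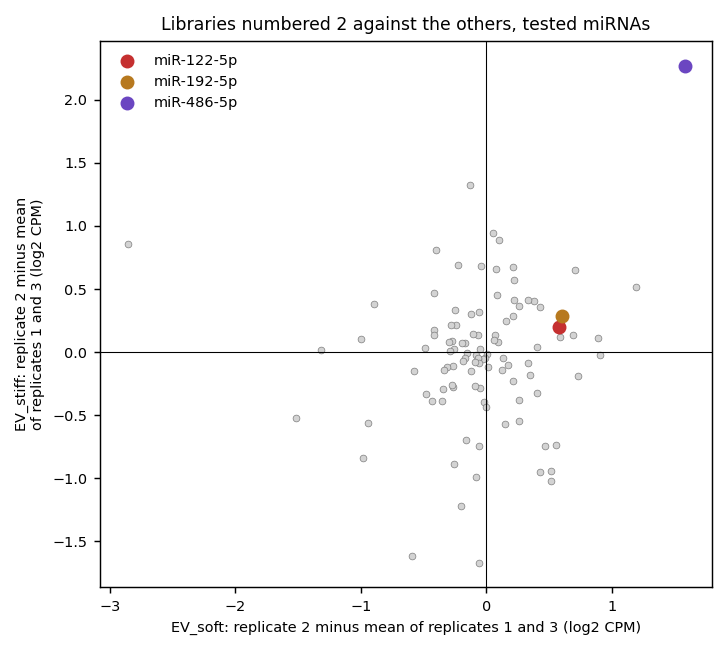
Each point is one of the 105 tested miRNAs; the axes give log2 CPM in replicate 2 minus the mean of replicates 1 and 3, in EV_soft (horizontal) and in EV_stiff (vertical). miR-486-5p (purple) lies apart at the upper right, at 1.58 and 2.27, while miR-122-5p (red) and miR-192-5p (ochre) lie close together among the other miRNAs.

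The 3 tested miRNAs of the red cell list were not highest in replicate 2 of both groups. In the order of the replicate numbers, miR-16-5p had 31, 22 and 29 reads in EV_soft and 5, 7 and 20 in EV_stiff, and miR-92a-3p had 906, 830 and 1437 reads and 668, 668 and 766. The third, miR-25-3p, had 333, 269 and 577 reads in EV_soft and 205, 179 and 163 in EV_stiff. The fourth listed miRNA with a row, miR-363-3p, had 2 reads in all, both in EV_stiff replicate 2. Neither miR-144-3p nor miR-144-5p, from the hairpin next to that of miR-451a, has a row in the table. Of the 6 listed red cell miRNAs other than the members, 4 had a row and 3 were tested, and none of the 3 was called (adjusted p from 0.0928 to 0.440, edgeR's quasi-likelihood test). Both miR-92a-3p and miR-16-5p are also made by many epithelial cells. The passenger arm miR-486-3p had 5 reads in all, of which 3 were in EV_stiff replicate 2.

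The myeloid miRNA miR-223-3p was at the limit of detection, with 1 read in EV_soft replicate 3 and 0 reads in the other 5 libraries. The other arm, miR-223-5p, had 1 read in EV_soft and 5 in EV_stiff, so that the arm known as the minor one had more reads here, on counts too low to compare. Other miRNAs of leukocytes were as low, with 1 read of miR-142-3p, 3 of miR-142-5p and 8 of miR-342-3p in all libraries together, and miR-150-5p has no row. The exception was miR-155-5p, known from activated leukocytes and from many carcinomas. It had 193, 122 and 215 reads in EV_soft and 46, 53 and 65 in EV_stiff and was called lower in EV_stiff (log2 fold change -0.86, adjusted p = 0.0179, edgeR's quasi-likelihood test). Of the 6 listed leukocyte and platelet miRNAs, it was the only one tested.

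Few other miRNAs of liver or gut were detected beside miR-122-5p. Of the 8 listed names, 2 had a row, and miR-122-3p, miR-885-5p and miR-215-5p had none. miR-375, known from gut and pancreas, had between 2 and 7 reads in each library. miR-148a-3p, abundant in liver and also in many epithelial cells, had between 2350 and 4341 reads. Its CPM did not overlap between the groups, with a log2 fold change of 0.50 (SE 0.09, adjusted p = 0.00295, edgeR's quasi-likelihood test), below the threshold of 0.58. Of 11 listed miRNAs of muscle, brain and endothelium, 6 had a row. Of these miR-1-3p, from heart and skeletal muscle, was tested (adjusted p = 0.916), and EV_soft replicate 1 held 45 of its 109 reads. Among the squamous miRNAs, 5 were tested, of which miR-200c-3p, a miRNA of the epithelial state, was called lower in EV_stiff (log2 fold change -1.10, adjusted p = 9.68e-05, edgeR's quasi-likelihood test) and none higher. The log2 fold changes of miR-205-5p, miR-21-5p, miR-31-5p and miR-203a-3p were 0.20, -0.49, -0.80 and 1.21 and did not pass both thresholds, and miR-141-3p, with 64 reads, was not tested.

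Ratios of members within a library do not depend on the scaling between libraries and were compared for the 3 pairs of members with a mean of at least 10 reads. The log2 ratio of miR-122-5p to miR-192-5p was 1.13, 1.47 and 1.91 in EV_soft and 2.45, 2.64 and 3.03 in EV_stiff. The groups did not overlap, and miR-122-5p was the more abundant in every library. The mean was 1.50 ± 0.39 in EV_soft and 2.71 ± 0.29 in EV_stiff (SD, n = 3), a difference of 1.21 that was larger than the spread between replicates, although the design cannot pass the threshold (p = 0.1 by two-sided exact permutation and 0.3 after adjustment over 3 pairs). It ranged from 1.02 to 1.41 with each library left out.

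The log2 ratio of miR-122-5p to miR-486-5p was 2.90, 1.67 and 2.60 in EV_soft and 4.52, 2.14 and 4.13 in EV_stiff. The groups overlapped through EV_stiff replicate 2 (difference 1.20, p = 0.3 by two-sided exact permutation, adjusted 0.45), and without that library the difference was 1.93, against 0.74 without EV_stiff replicate 1. The ratio of miR-192-5p to miR-486-5p had the same mean in both groups to within 0.005 (0.89 ± 0.81 and 0.89 ± 1.30, SD, n = 3, p = 1 by two-sided exact permutation). It ran from -0.50 to 2.06, lowest in replicate 2 and highest in replicate 1 of both groups, a spread too wide to show that these members moved alike.

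**Figure D5:**
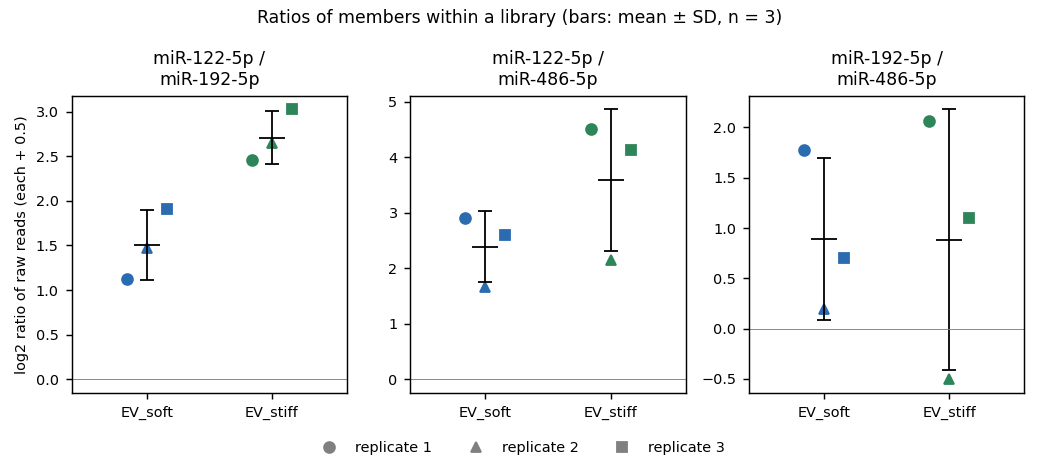
Log2 ratio of raw reads (0.5 added to each count) of 2 members within each library, EV_soft in blue and EV_stiff in green, with a symbol for each replicate number and bars for the mean ± SD (n = 3). The ratio of miR-122-5p to miR-192-5p separates the groups, from at most 1.91 to at least 2.45, and both ratios to miR-486-5p are lowest in replicate 2 of each group.

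The covariation of the members over the 6 libraries was followed on log2(CPM + 50). No pooled correlation was computed for miR-122-5p, whose groups lay apart. In deviations from the group mean it was highest in replicate 2 of both groups, by 0.38 in EV_soft and 0.13 in EV_stiff, and the same held for miR-192-5p (0.40 and 0.19), miR-486-5p (1.05 and 1.51) and miR-451a (1.05 and 1.05). miR-194-5p did not share this order. For miR-192-5p the lead of replicate 2 was small. In EV_stiff it was 1.02-fold over the next library, on 33 reads against 35, and in EV_soft replicates 1 and 2 both had 63 reads. miR-192-5p and miR-451a had replicate 3 as their lowest library in both groups, whereas miR-486-5p had replicate 1.

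Correlations were computed for the 6 pairs among miR-192-5p, miR-194-5p, miR-486-5p and miR-451a. Exact permutation p-values adjusted over the 6 pairs were between 0.292 and 0.851 for Pearson's r and between 0.746 and 0.919 for Spearman's rho, so that no pair passed. The strongest was miR-192-5p with miR-451a (r = 0.81, exact permutation p = 0.0486, adjusted 0.292, rho = 0.71, exact permutation p = 0.136). It rested on the replicate 3 libraries, and r was -0.02 without them. miR-486-5p and miR-451a had r = 0.72 (exact permutation p = 0.124) and rho = 0.49 (exact permutation p = 0.356), which rested on the replicate 2 libraries, with r = -0.73 over the other 4. miR-192-5p and miR-194-5p, which lie side by side on chromosome 11, had r = 0.08 (exact permutation p = 0.851) and rho = 0.09 (exact permutation p = 0.919), with at most 9 reads of miR-194-5p per library. Without the replicate 3 libraries, the farthest from the median of miR-192-5p, their r was 0.91, but the 4 libraries left had 9 and 7 reads of miR-194-5p in EV_soft and 1 and 1 in EV_stiff, so this value cannot be told apart from a difference between the groups.

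Among the other 104 tested miRNAs, likeness to a member was measured as the root mean square difference of log2 CPM profiles centred on their mean over the 6 libraries. The profile of miR-122-5p was nearest to those of let-7c-5p (0.17), miR-193b-5p (0.30) and miR-320d (0.32), where the median miRNA was at 0.68. Since the difference between the groups is part of these profiles, neighbours of miR-122-5p had to be higher in EV_stiff as well, and their log2 fold changes of 0.68, 1.29 and 0.93 are given as a description only. let-7c-5p was also the miRNA whose reads varied least. miR-192-5p was nearest to let-7g-5p (0.22), miR-1180-3p (0.32) and let-7f-5p (0.32), none of which was called. miR-486-5p had no close neighbour, the nearest being miR-10a-5p at 0.66, then miR-99b-3p at 0.70 and miR-99a-5p at 0.71.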

How the data were processed

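Small RNA libraries of EVs from Cal27 spheroids, 3 per group, were grouped and numbered as their labels say. The deposited values are raw counts per miRNA. By the study's methods the authors used exceRpt for quality control and counted RefSeq features. The submitters' processing notes name the build hg38, and the aligner and any removal of duplicate reads are not given in the sources used here. Libraries held 28688 to 66345 counts.

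The main test was that of edgeR 4.0.16 under R 4.3.3 (filterByExpr, TMM, quasi-likelihood test, Benjamini-Hochberg adjustment over all 105 miRNAs tested, no replicate block), with DESeq2 1.42.0 and limma 3.58.1 as alternatives. The study names no test across miRNAs, and its thresholds were used. Single values were compared by exact two-sided permutation tests (scipy 1.17.1). Of these fits, only edgeR's quasi-likelihood test with TMM was tried on simulated data. Further alternatives changed the scaling or the filter, added a replicate block or left out single libraries. Hairpin positions came from GENCODE 44 (GRCh38), whose build name matches hg38, and sequences from RefSeq.

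The members and lists were chosen with earlier results of these data known. Named miRNAs are the members, listed miRNAs with a mean of at least 10 reads or no row, and the 3 nearest profiles of each tested member. Others (let-7d-3p and listed miRNAs under 10 reads) were named after their values were seen.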

Additional observations from a re-analysis of the deposited data

How the results depend on the processing

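The call of miR-122-5p held in 14 of the 15 alternatives fixed with the design and in the one added later. The exception gave every library the same size: its log2 fold change was then 0.23 (adjusted p = 0.485), miR-192-5p was called instead (-0.96), and 57 miRNAs were called, 0 of them higher in EV_stiff. The sign of miR-486-5p, near 0 in the main analysis, was reversed with limma-voom (-0.090), with the same library size (-0.66) and with a replicate block (-0.087). Leaving out EV_soft replicate 1 (-0.19), EV_soft replicate 3 (-0.18), EV_stiff replicate 2 (-1.16) or both libraries numbered 2 (-0.45) also reversed it. No alternative called miR-486-5p. With each library left out in turn, the log2 fold change ran from -0.48 to 0.014 for miR-192-5p and from -1.16 to 0.85 for miR-486-5p, and the number of miRNAs called from 13 to 19. Of the 19 calls 11 were higher in EV_stiff, against 8 of 19 where CPM used total reads alone and 10 of 22 with at least 10 counts in every library, a filter that miR-486-5p did not pass. The causes were not tested. No call of a member changed in the paired fit, in which 16 miRNAs were called. SEs were smaller there than in the main analysis, with 0.35 against 0.68 for miR-486-5p. They were 0.14 against 0.18 for miR-122-5p and 0.26 against 0.33 for miR-192-5p. Deviations from the group means correlated by -0.13, 0.13 and -0.03 for the replicate numbers 1, 2 and 3. The numbers were not taken to pair the samples in the main analysis, although these correlations cannot show that pairing is absent. Differences in member ratios moved by less than the larger SD of the groups. That spread was wide, and the difference for miR-192-5p to miR-486-5p ran from -0.59 to 0.69 with single libraries left out. No correlation passed in the main analysis or with library size only, the only other scaling tried for them. As none passed at the start, this says little about their stability. Low counts limit miR-194-5p, miR-451a and miR-223-3p, with at most 9 reads per library, to a description.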
